A study of Caenorhabditis elegans with 4 samples.

Results

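The P granule genes *pgl-1*, *pgl-3*, *glh-1*, *glh-2*, *glh-3*, *glh-4*, *deps-1*, *meg-1* and *meg-2* were examined for HPL-2 occupancy in *Caenorhabditis elegans* larvae. These 9 genes were taken by name from the 19971 protein-coding genes that a RefSeq table on the WBcel235 assembly places on the 6 nuclear chromosomes. All 9 were found in the table. Chromatin immunoprecipitation followed by sequencing (ChIP-seq) had been carried out on wild-type worms of the N2 strain at the L3 larval stage, a mixed population of males and hermaphrodites at 20 °C. The series comprised 2 ChIP libraries made with SDQ2340, a polyclonal antibody raised in rabbit against HPL-2 and purified by affinity, and 2 input libraries of the same strain and stage. Whole larvae were used, so germ cells and somatic cells, and changes in their proportions, cannot be told apart in any value below.

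P granules are condensates of RNA and protein in the cytoplasm of germ cells, most of which lie at the outer face of nuclear pores. The synMuv B genes encode chromatin factors, among them the DREAM complex and HPL-2, and their loss is known to let P granule genes be expressed in somatic cells such as the intestine. HPL-2 is a heterochromatin protein 1 homologue whose chromodomain binds methylated histone H3. The name of the gene group refers to that repression, which peak lists cannot test, since they hold no expression values.

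The deposited peak lists held 23530 peaks for the series as a whole, 20533 for ChIP replicate 1 and 16490 for ChIP replicate 2. Peaks of the series-level list had a median width of 259 bp. Each peak carried a score of unstated scale from the authors' peak caller. Scores were therefore read as percentiles, the share of peaks in the same list with an equal or lower score. A locus is the gene body with 1 kb on each side. Peak positions are on WS220 and the gene table is on WBcel235, so distances from a gene end are approximate and the counts of loci, bodies and flanks were repeated with an allowance of 150 bp. The gene table used here gives no strand. Flanks are accordingly called lower or higher by coordinate, and a flank cannot be assigned as a promoter or a 3′ end. Read depth is unknown from these lists, and an absent peak does not show absent binding.

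In the series-level and replicate 2 lists most of the 9 genes carried an HPL-2 peak over the gene body, in nearly all cases with a score below the median of its list. In the series-level list 7 of 9 loci had at least 1 peak, against 47.0% of all protein-coding genes (Wilson 95% interval 46.3 to 47.7%, counting error only). A body peak was present in 6 of 9 genes, against 30.0% of all genes. Among the 3422 protein-coding genes within the length range of the 9 genes, 2584 to 4153 bp, 33.2% had a body peak. In replicate 1 the counts were 5 of 9 loci and 4 of 9 bodies, against 42.1% and 26.0% of all genes. In replicate 2 they were 7 of 9 loci and 6 of 9 bodies, against 35.7% and 23.5%. The share of bodies was thus above the value over all genes in each list, but 1 gene amounts to 11.1 percentage points and no test was made of a list chosen by name. The loci of *meg-1* and *meg-2* overlap, and the 4 *glh* genes are paralogues whose similar sequence can share reads, so the 9 are not independent. How reads matching several places were treated is not given in the sources used here.

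**Figure D1:**
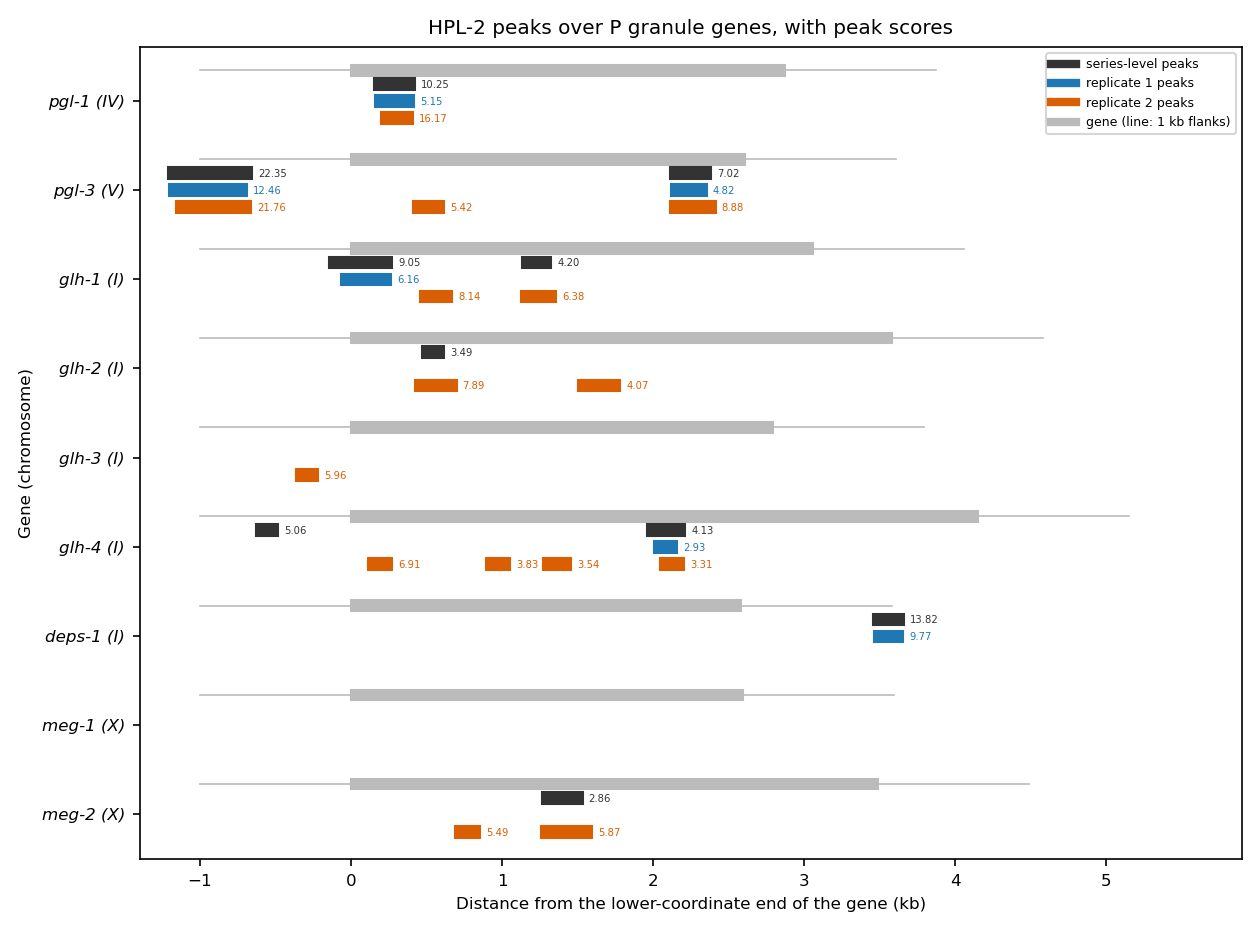
Position of HPL-2 peaks over each of the 9 P granule genes, drawn to scale as distance in kb from the lower-coordinate end of the gene (grey bar, with 1 kb flanks as a line), for the series-level, replicate 1 and replicate 2 lists. The number beside each peak is the authors' score; *pgl-1* has 1 peak at the same place in all 3 lists, and *meg-1* has none.

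Peaks in the flanks were fewer than peaks in the bodies. A lower-coordinate flank had a peak in 3 of 9 genes, against 24.3% of all genes, and a higher-coordinate flank in 1 of 9, against 24.2%. The replicate 1 list gave 2 and 1 of 9, against 21.5% and 21.6%. The replicate 2 list gave 2 and 0 of 9, against 14.7% and 14.8%. In each list more of the 9 genes had a peak over the body than in either single flank, but the bodies are also longer than a flank of 1 kb.

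**Figure D2:**
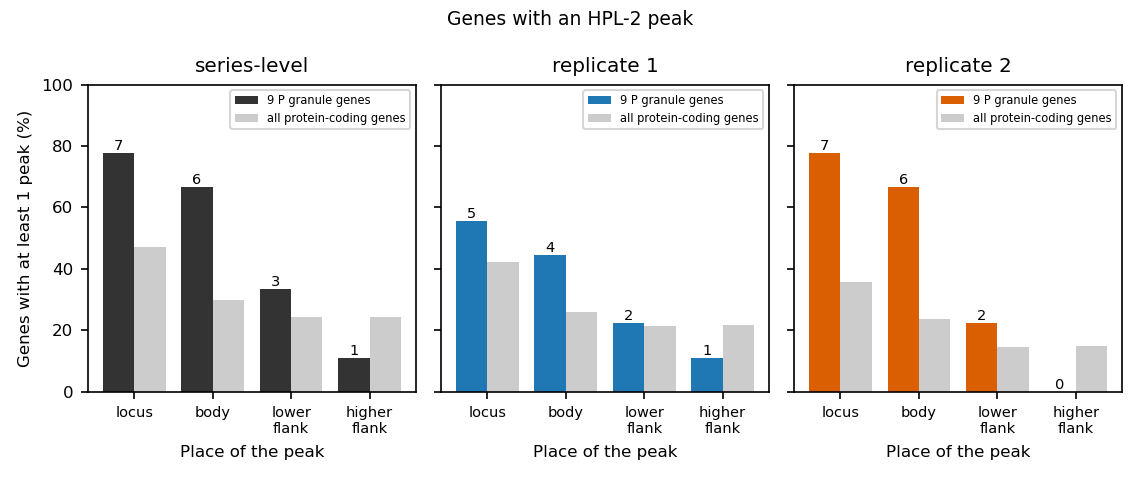
Percent of genes with at least 1 HPL-2 peak in the locus, the body, the lower flank and the higher flank, for the 9 P granule genes (coloured bars, with the number of genes above) and all protein-coding genes (grey bars), in each peak list. For bodies the 9 genes stand at 66.7, 44.4 and 66.7% against 30.0, 26.0 and 23.5% of all genes.

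*pgl-1* and *pgl-3* encode scaffold proteins of the P granule with RNA-binding RGG repeats. *pgl-1* lies in the centre of chromosome IV and had the same single body peak in every list. It ran from 6974593 to 6974866 (WS220, 274 bp) in the series-level list. In replicate 1 it ran from 6974602 to 6974858, and in replicate 2 from 6974638 to 6974852. It began about 0.2 kb inside the lower-coordinate end of the gene and covered 9.52% of the body in the series-level list. No other series-level peak lay within 10 kb of the gene, nor did any in either replicate list. It scored 10.25 in the series-level list, and 5.15 and 16.17 in replicates 1 and 2. The percentiles were 39.5, 20.4 and 68.3 in the same order, so the peak was below the median in 2 lists and above it in replicate 2. In its chromosome centre 16.7% of genes had a series-level body peak, and 14.5% and 12.9% had one in replicates 1 and 2. Its neighbour *him-3*, which encodes a protein of the meiotic chromosome axis and lies 190 bp away in the gene table, had no body peak in any list.

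*pgl-3*, on the left arm of chromosome V, also had its peaks at matching places in all lists. A body peak from 4758089 to 4758362 (274 bp) lay near the higher-coordinate end, starting about 2.1 kb into a gene of 2609 bp. It scored 7.02 in the series-level list, and 4.82 and 8.88 in replicates 1 and 2, at the 24.4, 18.0 and 43.3 percentiles, below the median of each. Replicate 2 had a further body peak from 4756391 to 4756596 with a score of 5.42 that neither other list held. A second shared peak, from 4754769 to 4755323 (555 bp), reached into the lower flank and was the highest-scoring of all peaks over the 9 loci in each list. Its scores were 22.35 in the series-level list, and 12.46 and 21.76 in replicates 1 and 2, at the 68.3, 56.4 and 77.1 percentiles. That peak lay over the body of *hil-4*, a linker histone H1 gene, which carried 2 peaks in each list, so the flank of *pgl-3* cannot be told apart from *hil-4* here. On the left arm of chromosome V 27.4% of genes had a series-level body peak.

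The *glh* genes encode Vasa-related DEAD-box RNA helicases of P granules. *glh-1*, in the centre of chromosome I, had 2 series-level body peaks, each found in a different replicate. The first, from 6854335 to 6854751 (417 bp, score 9.05), spanned the lower-coordinate end of the gene and was overlapped in replicate 1 (score 6.16) but not in replicate 2. The second, from 6855608 to 6855804 (197 bp, score 4.20), was overlapped in replicate 2 (score 6.38) but not in replicate 1. Replicate 2 held another peak from 6854935 to 6855149 with a score of 8.14. Both replicate lists thus had a body peak in *glh-1*, at places that did not overlap. No body peak was listed for its neighbour *sacy-1*, another DEAD-box helicase gene, whose flank takes in the first of these peaks. In the centre of chromosome I 22.1% of genes had a series-level body peak.

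*glh-2*, also in the centre of chromosome I, had 1 series-level peak of 146 bp, the narrowest width in the list, from 6514401 to 6514546. Its score of 3.49 stood at the 4.64 percentile. Replicate 2 had an overlapping peak of 276 bp (score 7.89) and a second of 278 bp (score 4.07), while the nearest replicate 1 peak was 14.2 kb from the gene. Its close neighbours had no body peak in any list; they are *C55B7.11* and *che-1*, which encodes a regulator of taste neuron identity.

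*glh-3* had no series-level and no replicate 1 peak, and the nearest in both lists was 12.4 kb away. Replicate 2 had a single peak of 146 bp in its lower flank, from 5791956 to 5792101 (score 5.96, the 22.5 percentile). *glh-4*, on the left arm of chromosome I, had a shared body peak from 3728989 to 3729239 (251 bp). That peak scored 4.13 in the series-level list, and 2.93 and 3.31 in replicates 1 and 2, at the 7.77, 4.78 and 2.97 percentiles. The peak was thus shared by all 3 lists and near the bottom of each. On that arm 59.7% of genes had a series-level body peak, and 43.7% had a body peak in both replicate lists. Replicate 2 placed 3 further peaks of 159 to 184 bp in the body of *glh-4*, which brought the covered share of the body to 16.0%, against 3.68% in replicate 1. A series-level peak of 147 bp in the lower flank was found in neither replicate. The surroundings differed between these 2 genes, with 13 series-level peaks within 10 kb of *glh-4* and 0 within 10 kb of *glh-3*.

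*deps-1* encodes a P granule-associated protein needed for the normal assembly of PGL-1 into granules. It had 17 series-level peaks within 10 kb, and 13 and 11 in replicates 1 and 2, yet no list had a peak over its body. In its chromosome arm 59.7% of genes had a series-level body peak. A peak from 509929 to 510132 (204 bp, score 13.82) lay in the higher flank, about 0.9 kb beyond the gene, and was overlapped in replicate 1 (score 9.77) but not in replicate 2. It lay over *Y65B4BL.7*, which carried 3 series-level body peaks and overlaps the end of *deps-1* in the gene table. Moving all peaks 150 bp higher took it out of the locus.

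*meg-1* and *meg-2* encode intrinsically disordered proteins of embryonic P granules and neighbour each other on the right arm of the X chromosome. *meg-1* was the one gene of the 9 with no peak over its locus in any list. *meg-2* had a series-level body peak from 13923909 to 13924176 (268 bp) with a score of 2.86, at the 2.27 percentile, the lowest of all series-level peaks over the 9 loci. Replicate 2 had an overlapping peak of 341 bp (score 5.87) and another of 164 bp (score 5.49). The nearest replicate 1 peak was 4.3 kb from *meg-2*. On that arm 27.2% of genes had a series-level body peak.

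Body peaks of these genes scored low. None of the 9 genes had a series-level body peak at or above the median score, against 18.9% of all protein-coding genes. All 6 genes with a body peak had only peaks below the median, whereas this held for 36.9% of all genes with a body peak. Replicate 1 gave 0 of 9 genes with a body peak at or above its median, against 16.6% of all genes. Replicate 2 gave 1 of 9, *pgl-1*, against 14.4%. The median percentile of the 7 series-level peaks over the 9 bodies was 8.07, beside 48.6 for the 15168 peaks over any protein-coding body. It was 19.2 in replicate 1 (4 peaks) and 19.3 in replicate 2 (13 peaks), beside 49.1 and 49.6. The median width was 268 bp over the 9 bodies and 270 bp over any body in the series-level list. In replicate 1 it was 245.5 bp over the 9 bodies and 273 bp over any body. In replicate 2 the values were 215 bp and 232 bp. These are descriptions of the lists and were not tested.

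**Figure D3:**
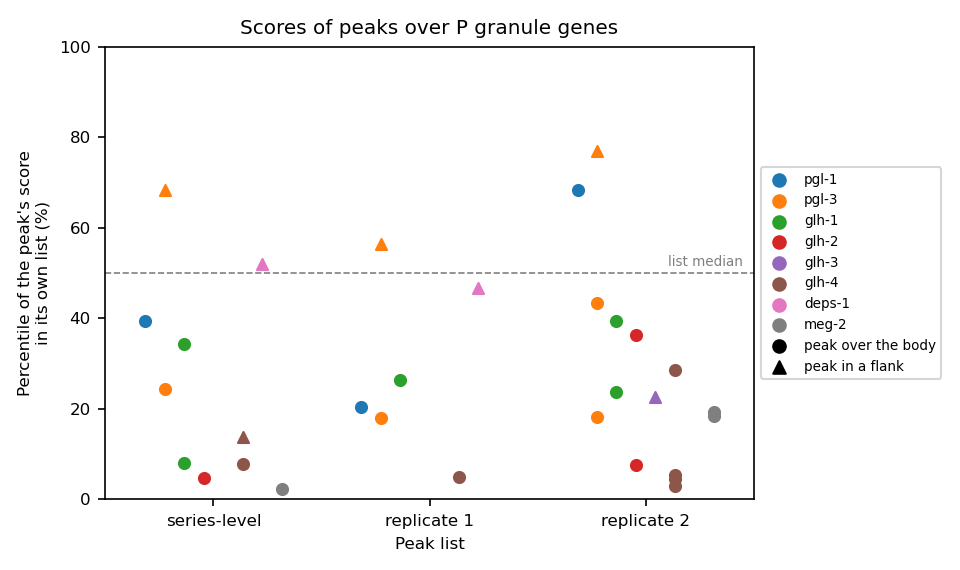
Percentile of the score of each HPL-2 peak over the loci of the P granule genes (vertical axis, %), within its own peak list (horizontal axis), with circles for peaks over the body and triangles for peaks in a flank. All body peaks lie below the dashed list median except that of *pgl-1* in replicate 2, at 68.3; *meg-1*, with no peak, is not drawn.

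The replicate lists differed over these genes. Replicate 2, with fewer peaks in all, had 15 peaks over the 9 loci, against 6 in replicate 1. Peaks took up 7.57% of the bases of the 9 loci in replicate 2 and 3.15% in replicate 1, beside 5.44% and 8.57% over the loci of all genes. In the series-level list they took up 5.48%, beside 9.94% over all loci, so the 9 loci held a peak more often than all loci in that list and had a smaller share of their bases in peaks. Replicate 2 was thus the higher list over these loci and the lower one over all loci. Of the 15 replicate 2 peaks, 8 had no overlapping series-level peak, compared with 14.4% of all replicate 2 peaks and 25.0% of those below the median score. All 6 replicate 1 peaks had one. Of the 10 series-level peaks over the loci, 4 were found in both replicates, 2 in replicate 1 alone, 3 in replicate 2 alone and 1 in neither. Over the whole series-level list the shares were 43.5, 39.1, 8.16 and 9.23% in the same order. No test of these differences was made.

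A peak in both replicate lists was found over 4 of 9 loci and 4 of 9 bodies, namely *pgl-1*, *pgl-3*, *glh-1* and *glh-4*, against 29.0% and 17.8% of all genes. When a replicate 1 peak had itself to be overlapped by a replicate 2 peak, 3 of 9 bodies remained, those of *pgl-1*, *pgl-3* and *glh-4*, against 17.4% of all genes. Of the genes, 5 lie on chromosome arms and 4 in centres. The counts of bodies with a peak were 6 in the series-level list and 4 and 6 in replicates 1 and 2. If each gene had a body peak at the rate of the genes in its own arm or centre, 2.84, 2.51 and 2.18 genes would have one. For loci the counts were 7, 5 and 7 in the same order of lists, beside 4.57, 4.16 and 3.31 at those rates.

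Other genes of the germ granule and of its control were compared by lists chosen by function. Of 32 other germ granule genes, 13 had a series-level body peak (40.6%), and 12 and 7 had one in replicates 1 and 2. In replicate 2 this was 21.9%, close to the 23.5% of all genes. One of these genes was counted among the DEAD-box genes too. Of 9 other DEAD-box helicase genes, 4 had a series-level body peak, 5 in replicate 1 and 3 in replicate 2. Of 15 synMuv B repressor genes, 6 had one in each of the 3 lists. Of 6 germline chromatin genes, 3 had a series-level body peak, and 3 and 2 had one in replicates 1 and 2. Over all genes the shares with a body peak were 30.0% in the series-level list, and 26.0% and 23.5% in replicates 1 and 2. A series-level peak in at least 1 flank was found in 4 of the 9 P granule genes, against 20 of the 32 other germ granule genes, 7 of the 9 DEAD-box genes, 11 of the 15 synMuv B genes, 5 of the 6 germline chromatin genes and 38.0% of all genes. In replicate 1 a flank peak was found in 3 of the 9 P granule genes, against 17 of the 32 other germ granule genes and 34.1% of all genes. In replicate 2 it was 2 of 9, against 8 of 32 and 24.8%, so the gap to the other germ granule genes was not seen in that list. For the DEAD-box, synMuv B and germline chromatin genes the counts were 7 of 9, 11 of 15 and 5 of 6 in replicate 1. In replicate 2 these counts were 4 of 9, 7 of 15 and 1 of 6. A series-level locus peak was found in 71.9% of the other germ granule genes and 77.8% of the DEAD-box genes. For the synMuv B and germline chromatin genes it was 86.7% and 83.3%, against 77.8% of the 9 P granule genes. The series-level locus share was thus not particular to the 9. Replicate 1 gave 62.5, 88.9, 86.7 and 83.3% in the same order, against 55.6%. Replicate 2 gave 37.5, 66.7, 66.7 and 50.0%, against 77.8%. No difference between lists was tested.

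**Figure D4:**
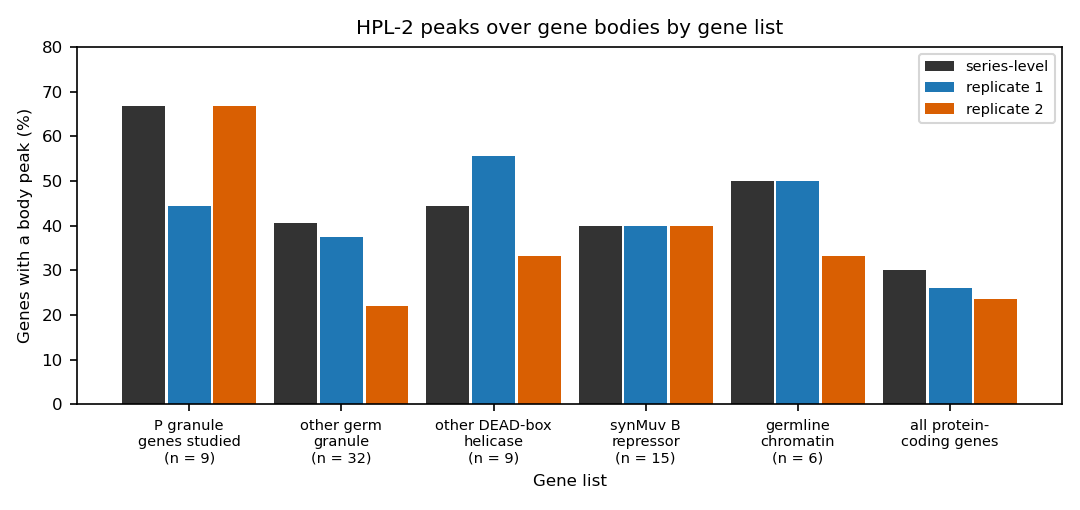
Percent of genes with an HPL-2 peak over the body in each list of genes and in all protein-coding genes, for the 3 peak lists. The 9 P granule genes stand at 66.7, 44.4 and 66.7%, and the 32 other germ granule genes at 40.6, 37.5 and 21.9%.

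The pattern of *pgl-1*, a body peak in all 3 lists and no flank peak in any, was looked for among the other germ granule genes over 9 yes or no entries (lower flank, body and higher flank in each list). *mex-3*, *pgl-2* and *csr-1* matched in all 9 entries. The same entries were found in 760 protein-coding genes (3.81%), these 4 included. *mex-3*, which encodes a KH-domain RNA-binding protein, had 5 series-level body peaks, the best with a score of 22.73. *pgl-2*, a paralogue of *pgl-1*, had 1 body peak in each list, with a series-level score of 6.96 and a width of 182 bp. *csr-1*, which encodes an Argonaute, had 1 in each list, with a series-level score of 2.43 at the 1.09 percentile. *ekl-1* matched in 7 entries, with a best series-level score of 66.71. The fifth place was shared by 10 genes that matched in 6 entries, of which *wago-4*, another Argonaute gene, is named because ties were settled by the higher score (99.68). A gene without any peak, such as *drh-3*, also matches in 6 entries, so this number shows little likeness. *wago-4* had a lower flank peak in all 3 lists, unlike *pgl-1*.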

How the data were processed

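HPL-2 ChIP-seq of 2 ChIP libraries was analysed through 3 deposited peak lists, and input libraries were not analysed here. Per the submitters' processing notes BWA and the build ce10 were used. Per the file headers peaks were placed on WormBase WS220 and came from MACS. The MACS version, threshold and control were not given in the sources used here, nor was the making of the series-level list. The score of each peak is the authors', as deposited, on an unstated scale. Genes were located in a RefSeq table on WBcel235, and no coordinate was converted. Because that table gives no strand, the planned split into promoter and 3′ end was replaced by lower- and higher-coordinate flanks, and no sequence or motif was analysed.

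A gene was counted when a peak overlapped it by at least 1 bp. Chromosomes were divided into 3 equal parts by the largest peak end. All 9 genes were named; other genes were named as neighbours within 1 kb or as the 5 germ granule genes most like *pgl-1*. The members and lists were chosen with earlier results of these data known, and no significance test was made. Labels do not say whether the replicates came from separate cultures; their spread may be technical. Overlap code in Python 3.11.15 with pandas 2.3.3 was tested on simulated data.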

Additional observations from a re-analysis of the deposited data

How the results depend on the processing

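Alternative settings were compared with the main value in 81 cases over 9 results. In 56 cases the value stayed within 1.5 times (counts) or within the SD of the replicate lists (percentages). Counts exactly at that limit, such as 6 to 4 bodies and 3 to 2 lower flanks, were taken as unmoved. The SD came from the single-replicate values, which were themselves among the alternatives, so for them it is no independent yardstick. Some of the 56 could not have moved, since flank length does not enter the count or share of bodies. The flank results, and the shares of all genes with a body or flank peak, were chosen after seeing the data. Restricting each list to scores at or above its median lowered the loci with a peak to 2, the bodies to 0, the lower flanks to 1 and the loci with a peak in both replicates to 1 of 9, and the bases in peaks to 1.06% (5.48% with all scores); over all genes the shares became 32.4% (locus), 18.9% (body) and 26.1% (either flank). The higher flank count became 0 with peaks moved 150 bp higher or with a flank of 500 bp. Under either of these settings, and by peak midpoint, the lower flank count fell from 3 to 2. Over all genes, the locus share was 41.7% with a flank of 500 bp and 55.2% with 2 kb, and the flank share 30.4% and 48.9%. The body share was 35.0% with windows widened by 150 bp, 31.9% with peaks moved 150 bp lower and 27.2% by midpoint. Genes of every type gave 37.0% (locus) and 20.9% (body). With a single replicate list the 9 genes gave 5 to 7 loci, 4 to 6 bodies, 2 lower flanks, 0 to 1 higher flank and 3.15 to 7.57% of bases, and all genes gave 35.7 to 42.1% (locus), 23.5 to 26.0% (body) and 24.8 to 34.1% (flank). The count of bodies stayed at 6 of 9 under the 150 bp allowance in either direction. No paired analysis was possible because only ChIP libraries had peak lists here; replicate numbers shared with input could not be used. The alternatives planned for promoters were not run as such, since strand was not given in the gene table used here. Peak lists without read counts limit every value to peaks above an unknown threshold.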
